A study of Andropogon gerardi with 32 samples.

Results

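Expression of 3 chromatin genes, the histone deacetylase HDA108 and 2 members of the methyl-CpG-binding domain family, mbd101 and mbd109, was followed in leaves of big bluestem (Andropogon gerardii) under altered and ambient rainfall. They are 3 of the 506 gene symbols in the platform annotation. All probes with 1 of these 3 symbols were taken, which gave 4 of the 10447 probes in the table: probe 7605 for HDA108 (Entrez gene 541681), probes 4168 and 8678 for mbd101 (542066) and probe 1355 for mbd109 (542501). Leaf RNA was measured on microarrays in 16 samples from plots or plants under altered rainfall and 16 under ambient rainfall. Big bluestem is a perennial grass of the tallgrass prairie. The labels give the 2 rainfall treatments without saying how rainfall was altered, and they give no age, genotype or season. Each title gives a ramp number (2 to 19, 16 numbers in all), here called the title number, which occurs once in each group. What a ramp is, the labels do not say.

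Acetyl groups on histone tails loosen the hold of histones on DNA and mark transcribed genes, and histone deacetylases remove them. HDA108 belongs to the RPD3 type of deacetylases, named after the yeast enzyme, which in maize takes part in gene silencing and in plant development. Proteins with a methyl-CpG-binding domain can recognise methylated cytosine and bring other chromatin proteins, deacetylases among them, to methylated DNA. In Arabidopsis several members of that family do not bind methylated DNA, so the domain alone does not settle the function of a gene. The symbols are those of maize genes and name the annotation of a probe. Whether a spot bound the matching big bluestem transcript, or a related one, was not tested, and the files hold no probe sequence.

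For every title number the altered and the ambient sample lacked a value at exactly the same spots, and the difference between the 2 samples of a number was taken as the unit of comparison beside the groups. The number of spots with a value ran from 1833 (number 7) to 9530 (number 2), and the 2 samples of a number correlated across spots at between r = -0.31 (number 7) and r = 0.76 (number 13). Sample medians ran from 4.25 to 8.62 log2 units, and quantile-normalized log2 intensities were therefore used unless the deposited values are named. A probe of the leaf gene Cab-m7, a chlorophyll a/b-binding protein of the light-harvesting antenna, lay at or above percentile 98.3 of the spots in all 32 samples (probe 4707), whereas its other probe (3766) ran from percentile 7.16 to 76.7. The only symbol of the seed storage list, z1C1_12, had a value in 2 samples of each group, between percentiles 9.35 and 21.1.

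None of the 4 probes had a value in every number. The mbd109 probe had one in 12 of 16 numbers, HDA108 in 9, and the mbd101 probes in 8 (probe 8678) and 4 (probe 4168). The median over all probes in the table was 9. All 4 probes had values in 3 numbers (2, 3 and 6), and none of them had one in 3 others (7, 18 and 19). Because probe 4168 had fewer than the 8 values per group set for the test across all probes, 3 of the 4 probes were tested. No value of the 4 probes was 0.

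**Figure D1:**
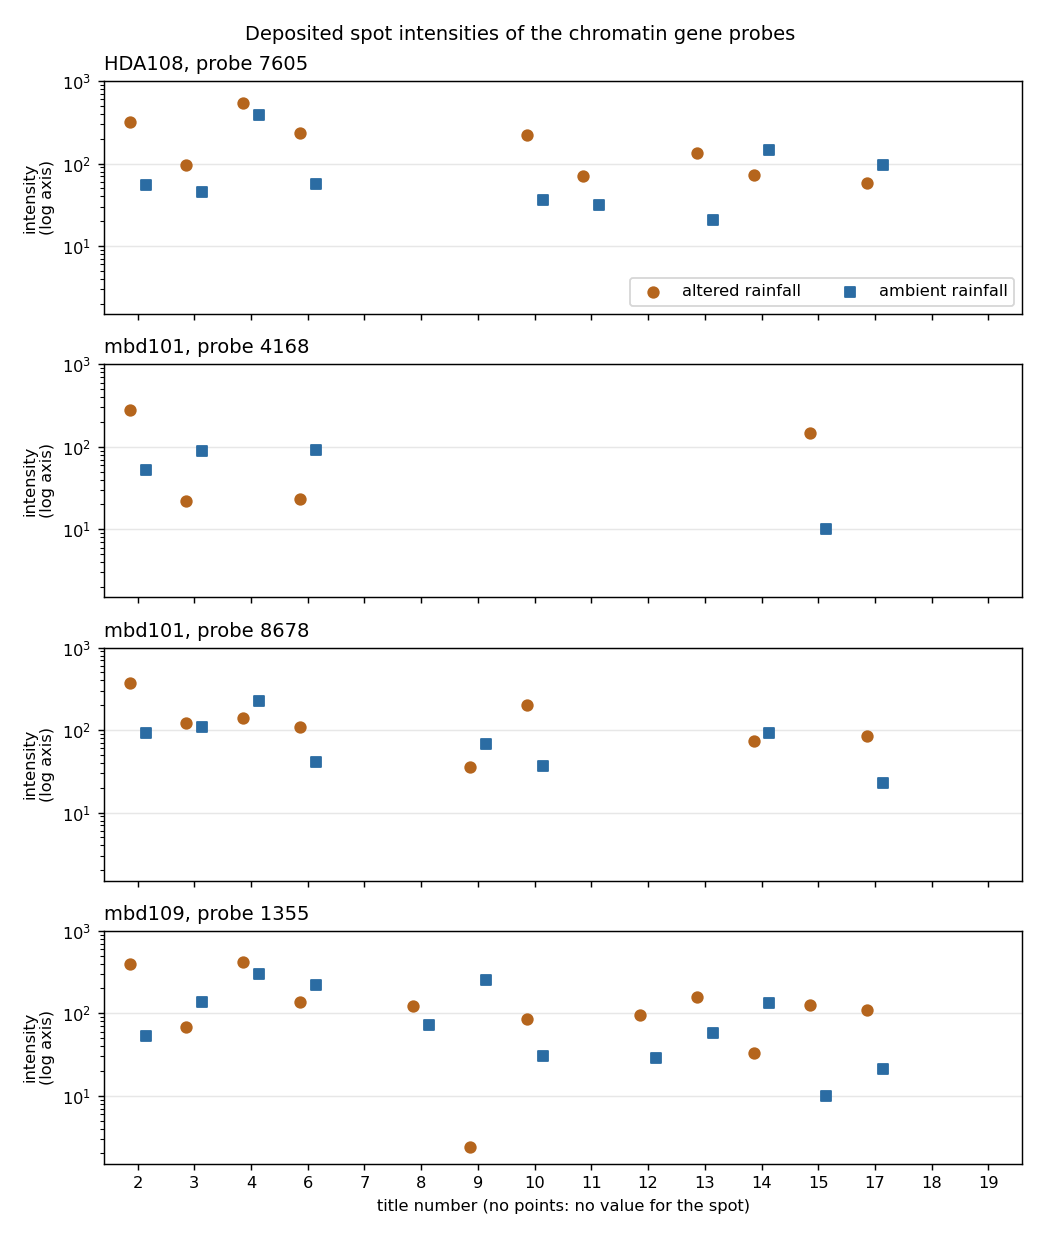
Deposited spot intensity (log axis) of the 4 probes of HDA108, mbd101 and mbd109 against title number, with altered rainfall as circles and ambient rainfall as squares. The lowest point is the altered sample of number 9 for mbd109, at 2.38, and the highest is the altered sample of number 4 for HDA108, at 536.

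HDA108 was found at mid-range intensity in both groups, and no difference between them passed the test. In altered samples the deposited intensity ran from 58.8 (number 17) through a median of 134 to 536 (number 4), against 20.9 (number 13) through 55 to 385 (number 4) in ambient samples. The 2 ranges overlapped over most of their length. After normalization the level was 6.53 ± 0.77 log2 units in altered samples and 6.18 ± 1.03 in ambient samples (SD, n = 9 each). The change was 0.35 ± 0.42 (SE) log2 units, with a 95% confidence interval from -0.51 to 1.21 (limma, adjusted p = 0.68). On the linear scale the interval ran from 0.70-fold to 2.32-fold, so it held both lower and higher levels. In whole-leaf RNA, fewer cells that express a gene and less of its RNA per cell cannot be told apart.

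Within numbers, HDA108 was higher in the altered sample in 4 of 9 and lower in 5. Most of the positive sum came from 3 numbers: 6 (2.33), 3 (2.03) and 13 (1.36). In these the ambient spots were dim, at percentiles 9.82, 5.54 and 11.6 of their samples. The lowest difference was -1.54, in number 11, where the altered spot lay at percentile 8.52. The median of the 9 differences was -0.09, opposite in sign to their mean (exact sign-flip permutation test on the mean, two-sided, p = 0.46, n = 9; 3 such tests were made).

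The gene mbd101 was represented by 2 probes, and probe 8678 had the largest change of the 3 probes tested without passing. Its deposited intensity ran from 35.7 (number 9) through a median of 115 to 374 (number 2) in altered samples, against 23 (number 17) through 79.5 to 228 (number 4) in ambient samples. Normalized levels were 6.48 ± 0.56 log2 units in altered samples and 5.91 ± 1.01 in ambient samples (SD, n = 8 each), and the groups overlapped. The change was 0.57 ± 0.43 (SE), a 1.49-fold higher level with a 95% interval from 0.81-fold to 2.72-fold (limma, adjusted p = 0.47). The altered sample was higher in 5 of 8 numbers. Number 6 gave 2.16 and number 17 gave 1.96, while number 4 gave -0.98 (exact sign-flip permutation test, two-sided, p = 0.22, n = 8). Again the ambient spots of numbers 6 and 17 were dim, at percentiles 4.27 and 6.58.

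Probe 4168 of mbd101 had deposited intensities of 280, 22.3, 23.2 and 145 in the altered samples of numbers 2, 3, 6 and 15, against 52, 90, 92 and 10 in the ambient samples. The altered spot was thus brighter in numbers 2 and 15 and dimmer in numbers 3 and 6. After normalization the differences were -0.22, -0.82, -1.30 and 3.04. The sign turned in number 2, where the median difference of all spots was 2.21 log2 units. With the minimum lowered to 4 values per group the change was 0.17 ± 0.68 (SE; limma, adjusted p = 0.92). The 2 probes of mbd101 shared 3 numbers and had the same sign in 2 of them. They differed most in number 6, where probe 4168 gave -1.30 and probe 8678 gave 2.16. With quantile normalization the 2 probes therefore gave no common direction for mbd101. With within-array loess their signs were alike in numbers 2, 3 and 6. There probe 4168 gave -0.21, -0.03 and 0.12, and probe 8678 gave -0.27, -0.59 and 2.20.

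The probe of mbd109 had the most values of the 4 and the widest range of within-number differences. Its deposited intensity ran from 2.38 (number 9) through a median of 116 to 421 (number 4) in altered samples, against 10 (number 15) through 64.3 to 299 (number 4) in ambient samples. The value of 2.38 was the smallest intensity above 0 in that altered sample, shared by 129 of its 6984 spots. Normalized levels were 6.21 ± 1.15 log2 units in altered samples and 6.38 ± 1.14 in ambient samples (SD, n = 12 each). The change was -0.17 ± 0.43 (SE), with a 95% interval from -1.04 to 0.70 (limma, adjusted p = 0.86). The altered sample was higher in 6 of 12 numbers and lower in the other 6, and the differences ran from -4.91 (number 9) to 2.75 (number 17; exact sign-flip permutation test, two-sided, p = 0.79, n = 12).

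With quantile normalization, number 9 was the only number whose removal turned the sign of the mbd109 change. Without number 9 the change was 0.26 (limma, adjusted p = 0.75), and the SD of altered samples was 0.70 in place of 1.15. With all numbers kept, the sign also turned, to 0.37 without normalization and to 0.14 with sample weights. The 2 samples of number 9 correlated across all spots at r = 0.05.

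**Figure D2:**
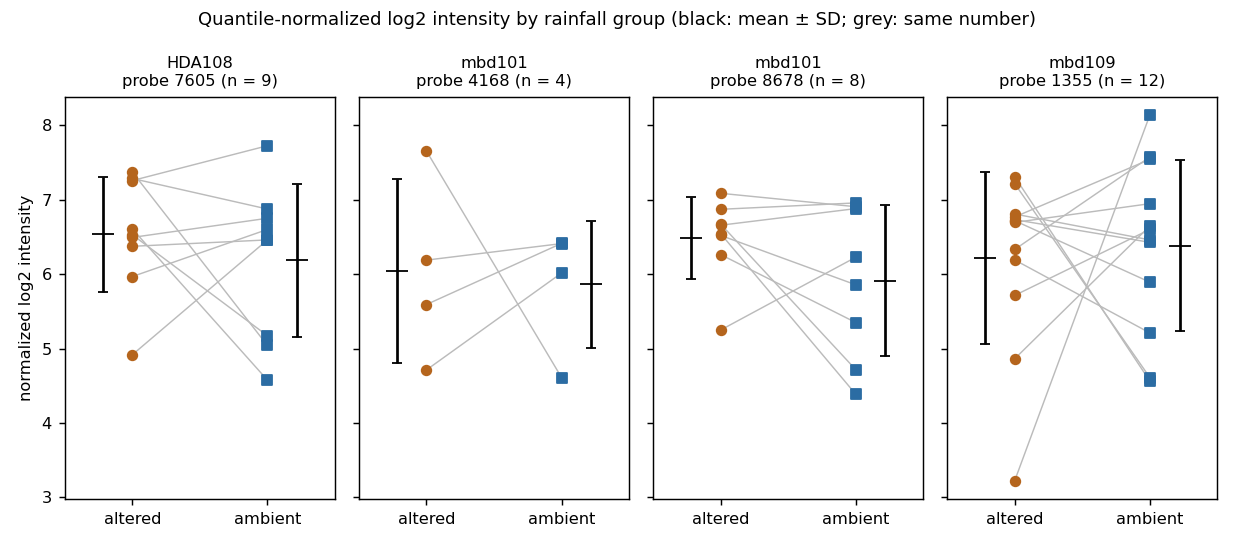
Quantile-normalized log2 intensity of each probe in altered (left) and ambient (right) samples, with grey lines joining the samples of a number and black bars giving the mean ± SD (n = 9, 4, 8 and 12). The lines cross in every panel, and the groups overlap for all 4 probes.

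Of the 3 probes tested, 0 passed the threshold of 0.05 after adjustment in limma, where 9.02% of the 6384 probes tested across the whole table did. At an unadjusted p under 0.05 the count was also 0 of 3, against 21.9% of all probes tested. With 3 probes these counts cannot be told from the background. In absolute size the changes of HDA108, mbd101 (probe 8678) and mbd109 exceeded those of 45.3%, 66.5% and 22.6% of tested probes. The median change of all tested probes was 0.10 log2 units, and 57.3% of them were higher under altered rainfall.

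A further methyl-CpG-binding domain gene, mbd105, was the only other gene of the chromatin list with a symbol. Its pooled within-group SDs, 0.78 (probe 4357) and 0.70 (probe 9013) log2 units, were below those of the 3 genes' tested probes. Both of its probes had similar small changes, 0.18 ± 0.31 (SE) for probe 4357 (limma, adjusted p = 0.78) and 0.18 ± 0.33 (SE) for probe 9013 (limma, adjusted p = 0.79). Probe 4357 was higher in altered samples in 8 of 14 numbers and probe 9013 in 6 of 11. In the 11 numbers that both probes measured, the sign was the same in 6. The chromatin list thus had 4 genes with a symbol and 5 tested probes, of which 0 passed in limma, either way, with or without adjustment. Other chromatin genes may stand among the probes that have only a locus number or no symbol.

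The order of the 3 genes by spread between samples turned on number 9. With it, the pooled within-group SD of mbd109 was 1.15 log2 units, above that of 84.4% of tested probes, whereas HDA108 (0.91) and probe 8678 of mbd101 (0.82) exceeded 52.3% and 36.3%. The median over tested probes was 0.90. Without number 9 the pooled SDs of mbd109 (0.89), HDA108 (0.91) and mbd101 (0.86) lay close together and near the median of 0.86, and mbd109 exceeded 54.5% of tested probes. For probe 8678 of mbd101 the mean absolute deviation from the group median was 0.34 in altered samples and 0.83 in ambient samples, and the altered sample deviated more in 1 of 8 numbers. That difference of -0.49 did not pass (exact sign-flip permutation test, two-sided, p = 0.15, n = 8), and without normalization it was -0.086. The same difference was -0.21 for HDA108 (exact, p = 0.53, n = 9) and -0.15 for mbd109 (exact, p = 0.65, n = 12), or -0.33 without number 9 (exact, p = 0.26, n = 11).

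The widest differences lay at dim spots. The 4 probes gave 33 within-number differences, and 7 of them (21.2%) went beyond 2 log2 units in either direction, against 16.6% over all probes in the table. In all 7 the dimmer of the 2 spots lay under the 10th percentile of its sample, as it did for 74.8% of such differences over all probes. Where both spots lay at or above the 10th percentile, the differences of the 4 probes ran from -1.24 to 1.36. Over all probes, with 95565 differences in all, that range was -5.86 to 5.44. A spot under the 10th percentile occurred in 33.3% of the differences of the 4 probes, against 19.6% over all probes. A wide difference needs 1 low spot when the other is of middling brightness, as here. The files give no background level, so whether the dim spots held signal is unknown. In the ambient sample of number 15, probe 4168 of mbd101 and the mbd109 probe both had an intensity of exactly 10.

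**Figure D3:**
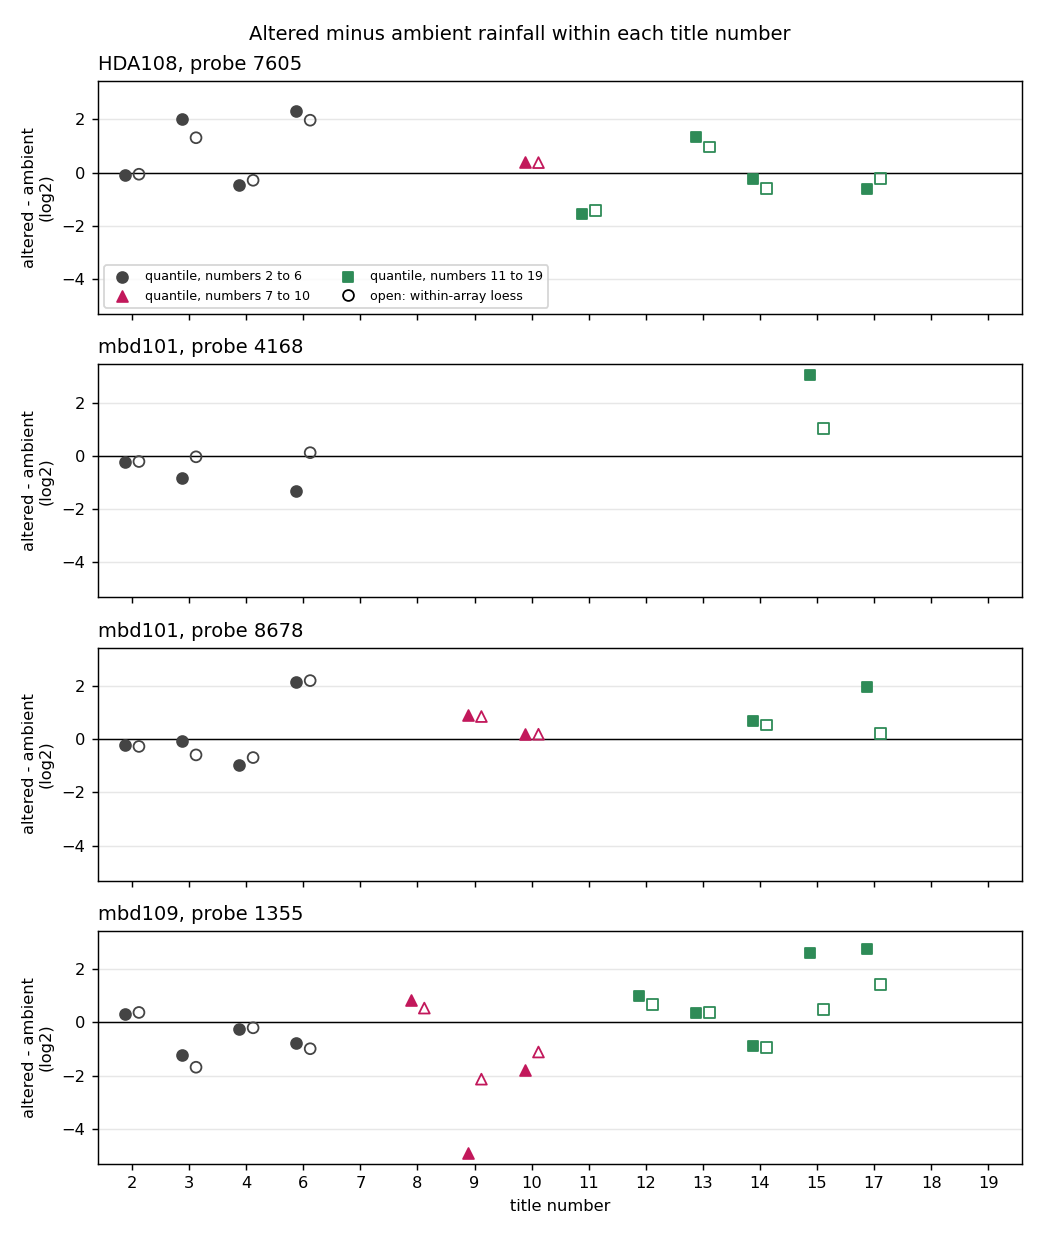
Altered minus ambient difference (log2) of each probe against title number, with filled symbols for quantile normalization, open symbols for within-array loess, and colour and shape for the wording of the sample description. The mbd109 difference in number 9 is -4.91 with quantile normalization and -2.13 with loess.

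Differences in the deposited values correlated positively with the median difference of all spots of the number for all 3 tested probes. Each deposited difference carries the shift between the 2 whole samples, so a positive r is no trait of these genes. How r ran over other probes was not computed. The 3 r values were alike (0.68 to 0.69), and only mbd109, with the most numbers (n = 12), was below 0.05 by both measures after adjustment. The p-values set r against 0, so they cannot separate a gene from that shared shift. In the deposited values HDA108 was higher in the altered sample in 7 of 9 numbers, by 1.21 ± 1.41 log2 units (SD, n = 9), against 4 of 9 after normalization. The median difference of all spots in a number ran from -1.11 (number 9) to 2.65 (number 7). The deposited difference correlated with that median at r = 0.69 and rho = 0.77 for HDA108 (exact permutation p = 0.045 and 0.021, adjusted 0.066 and 0.040, n = 9). For probe 8678 of mbd101 the values were r = 0.69 and rho = 0.67 (exact permutation p = 0.066 and 0.083, adjusted 0.066 and 0.083, n = 8), and for mbd109 r = 0.68 and rho = 0.65 (permutation p = 0.015 and 0.026, adjusted 0.044 and 0.040, n = 12). These 3 relations were computed as 1 family. Without numbers 2 and 10, which lay farthest from the median of the array values, r was 0.50, 0.18 and 0.82 for HDA108, mbd101 and mbd109. For mbd101 the relation therefore rested on those 2 numbers. For mbd109 the numbers kept included number 9, where its deposited difference was -6.75. After quantile normalization r was -0.30, -0.48 and 0.24.

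**Figure D4:**
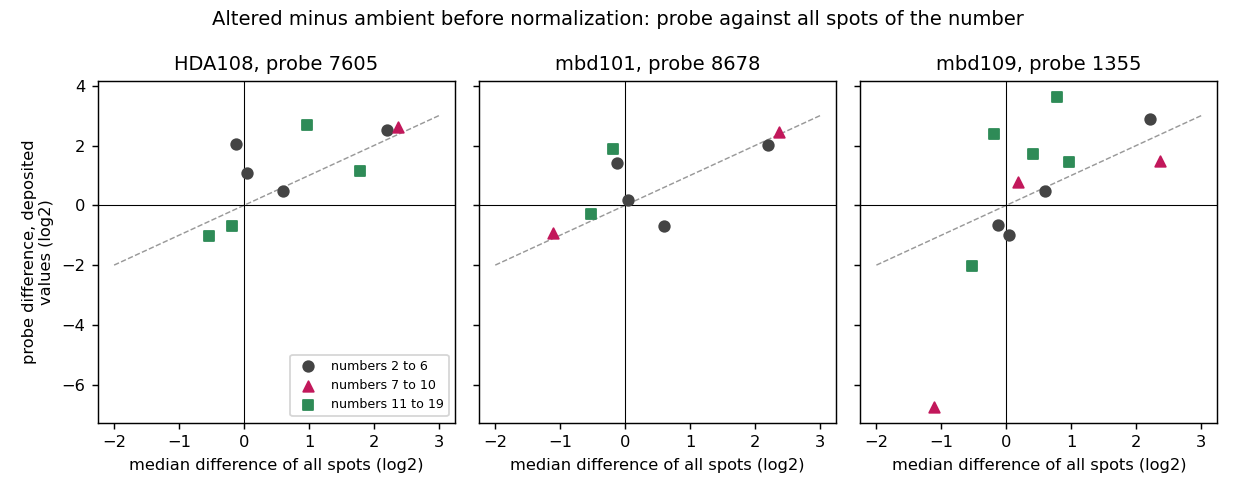
Altered minus ambient difference of each tested probe in the deposited values (log2) against the median difference of all spots of the same number (log2), 1 point per number, with a dashed line where both are equal. In numbers 2 and 10 all 3 probes and the median of all spots are well above 0.

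Sample descriptions have 3 wordings, which separate numbers 2 to 6, 7 to 10 and 11 to 19 and may mark batches. The mbd109 difference averaged -0.49 (4 numbers), -1.96 (3 numbers) and 1.16 (5 numbers) in these sets, and the altered sample was higher in 1 of 4, 1 of 3 and 4 of 5. With loess the averages were -0.62, -0.90 and 0.41. The middle average was carried by number 9, and without it the other 2 numbers averaged -0.48 (-0.29 with loess). A test of unequal rainfall effects between the sets gave an unadjusted p = 0.0031 for mbd109 in limma, and it did not pass after adjustment (moderated F-test, adjusted p = 0.32). The pairing by title number was left out of that test. With the title number as a block (replicate block) the adjusted p for mbd109 was 0.85 (limma, moderated F-test). With median centring it was 0.75 (limma, moderated F-test). Without number 9 the unadjusted p was 0.046 (limma, moderated F-test, adjusted p = 0.97), and 239 of 4795 probes had one under 0.05. The unpaired test on all numbers was passed by 0.0816% of 6124 probes, and 443 had an unadjusted p under 0.05. For HDA108 the average was 0.95 in numbers 2 to 6 (4 numbers), 0.41 in number 10 and -0.27 in numbers 11 to 19 (4 numbers), too few in the middle set to test. Probe 8678 of mbd101 averaged 0.22, 0.55 and 1.31 over 4, 2 and 2 numbers (limma, moderated F-test, adjusted p = 0.999). With loess these averages were 0.16, 0.52 and 0.37, and the difference in number 17 was 0.21 in place of 1.96.

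No pair of the 3 genes had a correlation across numbers that passed after adjustment. Across numbers, the altered minus ambient differences of HDA108 and mbd101 (probe 8678) correlated at r = 0.27 and rho = 0.21 (exact permutation p = 0.58 and 0.66, n = 7). Those of HDA108 and mbd109 gave r = -0.45 and rho = -0.43 (exact permutation p = 0.28 and 0.30, n = 8), and those of mbd101 and mbd109 r = 0.15 and rho = -0.07 (exact permutation p = 0.74 and 0.88, n = 8). All Pearson values had an adjusted p of 0.81 over the 6 relations computed. On the deposited log2 values, whose differences carry those of all spots of the number, the same 3 pairs gave higher values. There mbd101 with mbd109 gave r = 0.76 and rho = 0.79 (exact permutation p = 0.018 and 0.028, adjusted 0.072 and 0.17, n = 8). HDA108 with mbd101 gave r = 0.56 (exact permutation p = 0.18, adjusted 0.22, n = 7) and HDA108 with mbd109 r = 0.39 (exact permutation p = 0.33, adjusted 0.33, n = 8). After normalization, the 2 numbers farthest from the median of the first gene named were then left out. These were 3 and 6 for both pairs with HDA108, and 6 and 17 for mbd101 with mbd109. The remaining 5, 6 and 6 numbers gave r of -0.30, -0.30 and -0.71. Both positive values for mbd101 turned when just number 6 (against HDA108) or just number 17 (against mbd109) was left out. There r was -0.26 and -0.31. In number 6, HDA108 and probe 8678 of mbd101 were higher in the altered sample (2.33 and 2.16). Their ambient spots there were dim, at percentiles 9.82 and 4.27. In the same number mbd109 (-0.77) and the other probe of mbd101, 4168 (-1.30), were lower.

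Mean levels of the 2 samples of a number gave r = -0.16 for HDA108 with mbd101 (exact permutation p = 0.71, n = 7), r = -0.34 for HDA108 with mbd109 (exact permutation p = 0.41, n = 8) and r = -0.10 for mbd101 with mbd109 (exact permutation p = 0.81, n = 8). The matching rho values were 0.18, -0.48 and -0.26 (exact permutation p = 0.71, 0.24 and 0.54), with adjusted p of 0.81 for each r and 0.86 for each rho. Without numbers 3 and 4 r of HDA108 was 0.80 with mbd101 (5 numbers left) and -0.66 with mbd109 (6 left). Without numbers 3 and 10 r of mbd101 with mbd109 was -0.11 (6 left). These values rest on few numbers and were not tested. For comparison, r was computed with every tested probe that had values in all numbers of a pair (3723, 3491 and 3335 probes). Over the numbers of its pairs with mbd101 and mbd109, HDA108 had a median r of 0.02 and 0.07 for mean levels. For differences these medians were 0.12 and 0.11. Over the numbers of its pair with mbd109, mbd101 had a median r of 0.10 for mean levels and -0.12 for differences. No wording set held 6 numbers with values of both genes of a pair, so no relation could be repeated within sets.

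**Figure D5:**
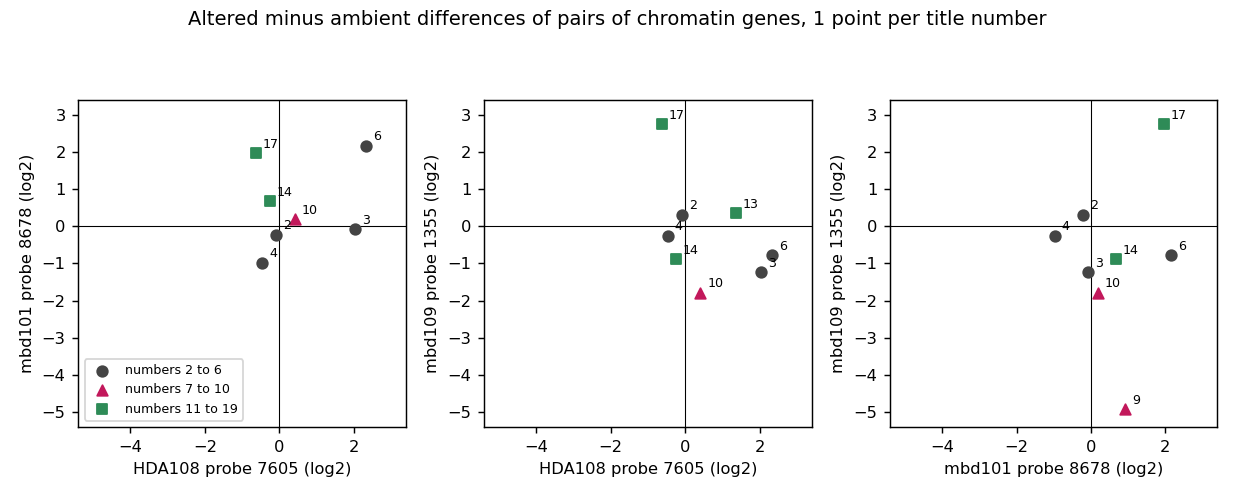
Altered minus ambient difference (log2, quantile-normalized) of 1 chromatin gene against another, 1 point per title number, labelled with the number and coloured by the wording of the sample description (n = 7, 8 and 8). The points spread over all 4 quadrants in both panels with mbd109. Number 9, with mbd109 at -4.91, is only in the panel of mbd101 with mbd109, because HDA108 had no value there.

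Only mbd109 had the 12 numbers required to look for probes of similar pattern. Among 241 probes with another gene symbol, the 3 whose altered minus ambient differences were most like those of mbd109 were LOC541785 (probe 1640, r = 0.74), LOC100037774 (probe 2435, r = 0.73) and LOC732794 (probe 11103, r = 0.72), each over 12 numbers. They were picked as the highest of all candidates, whose median r was -0.19, so these values are a description with no test. Without number 9 the same 3 values were 0.31, 0.29 and 0.23.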

How the data were processed

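The deposited table holds linear spot intensities, 1 column per sample, which the authors supplied with the series. Scanner, dyes and background correction are not given in the sources used. Of 194148 intensities, 1509 (0.777%) were 0 and were treated as missing before log2 was taken. Sample medians differed by more than 0.1, so samples were quantile normalized. limma 3.58.1 in R 4.3.3 (lmFit, eBayes, two-sided) was run on the 6384 probes that had 8 or more values per group, and p-values were adjusted over these by the Benjamini-Hochberg method with a threshold of 0.05. In data simulated for this comparison on 6384 probes, 86 of 100 changes of 2 log2 units and 98 of 100 of 3 log2 units were recovered. In the same data 13 unchanged probes were called. The simulated scatter was drawn separately for each sample. No tested probe of the 3 genes had a change this large, and recovery of smaller changes was not simulated.

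Differences within a title number were tested by exact sign flips, and correlations by exact permutation under 10 numbers and 100000 resamples otherwise (numpy 2.4.6). Named probes were all those of HDA108, mbd101, mbd109 and the chromatin list (symbols such as hda, mbd or hmg, which matched 4 genes), and the 3 probes most like each member over at least 12 numbers. A leaf list (Cab-m7 and pgr5 matched) and a root or seed list were looked up too. pgr5 averaged 9.06 in altered and 9.69 in ambient samples (n = 16 each). Gene symbols came from the platform annotation, which gives 728 of the 10447 probes 1 symbol. The members and lists were chosen with earlier results of these data known. Nothing in the labels settles that all samples of a group are separate plants, so p-values then describe only the scatter among samples, which may be technical. The number of arrays and missing spots limit the precision.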

Additional observations from a re-analysis of the deposited data

Results flagged for a closer look

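In groups of 4 to 10 samples, the gap of the lowest or highest sample to its neighbour was compared with the range of the group. Of 6 such groups (each probe of HDA108 and mbd101 under either rainfall), 1 had a sample that stood apart: probe 8678 of mbd101 in the altered sample of number 4, at 5.25 normalized log2 units, with a gap of 0.55 of the range (n = 8). By chance about 1 in 20 groups would be picked out.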

How the results depend on the processing

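No alternative made a change of HDA108, mbd101 or mbd109 pass the threshold. The change of probe 8678 of mbd101 stayed above 0 under all 31 alternatives. That of HDA108 turned in 1 of 31, to -0.27 within numbers 11 to 19. Many of these alternatives could not move a change, such as the replicate block or leaving out a number without a value of the probe. The counts are therefore no measure of a stable direction. The mbd109 change turned to 0.37 without normalization (also within numbers) and 0.14 with sample weights. It turned to 1.16 within numbers 11 to 19 and 0.26 without number 9 (or without 7, 9 and 19, also within numbers). When each number was left out in turn the change ran from 0.10 to 0.59 for HDA108, 0.35 to 0.79 for mbd101 and -0.44 to 0.26 for mbd109. The difference in spread of HDA108 turned to 0.013 without normalization, where that of mbd101 was -0.086 in place of -0.49. Without number 9 that of mbd109 was -0.33 in place of -0.15. Correlations turned without normalization to 0.39 (HDA108 with mbd109, differences), and for mean levels to 0.61 (HDA108 with mbd101), 0.77 (HDA108 with mbd109) and 0.75 (mbd101 with mbd109), with loess to -0.24 (mbd101 with mbd109, differences) and with median centring to 0.12 (the same pair, mean levels). None passed, and the causes were not tested.

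With the replicate block the changes were the same by construction, with adjusted p in limma of 0.64 for HDA108, 0.39 for mbd101 and 0.88 for mbd109, and 588 probes passed in place of 576. Deviations of the 2 samples of a number from their group means correlated at between -0.12 and 0.73 over 894 probes, above 0.1 for 14 of 16 numbers, and 25 of 32 samples correlated best with their own number. The titles give both samples of a number the same ramp number without saying what they share. The count of 576 ran from 473 to 648 with each number left out. It was 343 without normalization, 131 among probes with a value in all samples (none of the 4), and 10, 0 (560 at an unadjusted p under 0.05) and 282 within numbers 2 to 6, 7 to 10 and 11 to 19, where fewer samples were used. Higher probes made up 44.8% of calls, 75.5% without normalization. The test between wording sets passed 5 probes, 4 without number 9 (chosen after seeing the data, as was the pooled SD without it), 3 with median centring and 0 with the replicate block (352 at an unadjusted p under 0.05).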
